A study of Arabidopsis thaliana and Lactuca sativa with 158 samples.

Results

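Green tissue of Arabidopsis thaliana plants that carry the RUBY reporter was compared between leaves of mixed colour and leaves that were green throughout. The green parts of mixed leaves gave 13 libraries and fully green leaves gave 9, so that 22 of the 158 libraries of the series were used, chosen by the colour in the sample titles. All 22 come from leaf tissue of plants 4 weeks old, of genotype Col-0, with RUBY under the 35S promoter (35S::RUBY), and plants of lines marked T1 were left out. The green parts libraries come from 8 transgenic lines and the fully green ones from 6 of these. In 9 cases the same line and replicate number occurs in both groups, and these are called pairs here. The 9 fully green libraries are all in a pair, whereas 4 green parts libraries (MK025 replicate 1, MK041 replicates 1 and 2, MK043 replicate 2) have no partner. The labels do not say how mixed leaves were divided, whether a pair shares a plant, or whether replicates of a line are separate plants, so the p-values measure the spread between these libraries only. Libraries of red parts (n = 13) and fully red leaves (n = 13) of transgenic lines of the same kind serve as a scale in a few places.

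RUBY joins the coding sequences of enzymes that turn tyrosine into red betalain, so that pigment shows where the transgene is expressed. A transgene under the strong 35S promoter is prone to post-transcriptional silencing. There RDR6 and SGS3 help to copy transgene RNA into double strands, DCL4 cuts these into small RNAs, and AGO1 uses the small RNAs to cut matching transcripts. Such silencing can cover a whole leaf or stay in sectors, and the comparison asks whether RNA in a green sector beside red tissue looks like RNA in a leaf that is green throughout.

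Long cDNA reads were taken after capture with probes for 77 targets. They comprise RUBY, the construct elements GUS and eGFP, 26 targets of the protein-coding class, 12 phased small RNA sources (phasiRNA), 2 of the tasiRNA class, 8 loci of RNA-directed DNA methylation (RdDM), 19 methylated and 7 unmethylated transposable elements. Values are reads per 1000000 reads (RPM), with totals of 407441 to 1394849 reads in green parts and 379499 to 1345617 in fully green libraries, so that 1 read was worth 0.717 to 2.45 RPM and 0.743 to 2.64 RPM. The tables' headers number the libraries in 2 sets. The first holds 4 green parts and 4 fully green libraries (MK016 replicates 3 and 4, MK040 replicates 1 and 2) and the second holds 9 green parts and 5 fully green libraries. The sets differed in most targets: with colour as a term, limma called 41 of 58 targets between sets, 40 of them higher in the second. RPM summed over targets was also higher in the second set, at 628144 to 836661 against 311739 to 561465 in the first. Whether single targets differ between sets beyond this common shift was not tested. A larger share of the green parts libraries is in the second set, so within-set values stand beside the results. None of the 11 leaf, epidermis, phloem or flower markers looked for is among the targets, so the tissue could not be checked against markers. In bulk tissue, fewer cells with a transcript and less transcript per cell cannot be told apart.

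RUBY RNA was still abundant in green tissue, and its level did not separate the groups. RUBY reads of all kinds stood at 74415 RPM at the lowest, 117192 at the median and 184480 at the highest in green parts, against 84175, 114898 and 243154 RPM in fully green leaves. The ranges overlap, although the highest fully green library lies above every green parts library, and the medians lie close together. On the log2(RPM + 1) scale the difference was -0.08, with a 95% interval of -0.48 to 0.31 (exact two-sided permutation test over 497420 assignments, p = 0.663, adjusted p = 0.884 over 8 RUBY measures, n = 13 and 9). On this scale the interval excludes a 2-fold difference in either direction. Green parts were higher in 5 of the 9 pairs and lower in 4. Within the first numbering set the difference was -0.18 (exact permutation p = 0.657, n = 4 and 4) and within the second 0.04 (exact permutation p = 0.847, n = 9 and 5); the sign also turned without the fully green library of MK040 replicate 1, the highest of its group (0.04). After centring on the other targets of each library the difference was -0.26 (exact permutation p = 0.517). No interval is given for the centred value, so a 2-fold difference is not excluded on that scale.

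The highest library of each group was of line MK040. This line gave 149523 and 184480 RPM in green parts, against 243154 and 174424 RPM in fully green leaves, whereas the other lines lay between 74415 and 153169 RPM in green parts and between 84175 and 131711 RPM in fully green leaves. For MK040 replicate 1 the fully green leaf had more RUBY reads than the fully red leaf, at 243154 against 180111 RPM. RPM summed over targets was 561465 in the fully green and 310094 in the fully red library. As a share of that sum RUBY was lower in the fully green leaf, so the order depends on the scaling. The leaves nevertheless stood apart in the share of RUBY sense reads marked pA, taken here as polyadenylated, at 22.5% in the fully green and 72.6% in the fully red leaf. Among the 58 targets tested, RUBY varied least in RPM between green parts libraries (SD 0.40 on the log2 scale, against a median of 1.00 over the targets), and only 1 target varied less between fully green ones (RUBY 0.48, median 1.08). As a share of RPM summed over targets, RUBY ran from 9.81% to 47.8% in green parts and from 12.1% to 43.3% in fully green leaves. The SD was 54.2% and 47.3% of the mean for that share, against 27.3% and 38.8% for RUBY RPM. The rank of RUBY on that scale was not computed.

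The split of RUBY reads by tail and strand did not differ between the groups by more than the spread. Sense reads marked pA reached 21025 RPM at the lowest, 38251 at the median and 68670 at the highest in green parts, against 20553, 42809 and 53877 RPM in fully green leaves (log2 difference -0.01, interval -0.53 to 0.52, exact permutation p = 0.981). Sense reads not marked pA stood at 46855, 60046 and 147077 RPM in green parts, against 52823, 72098 and 185475 RPM in fully green leaves (log2 difference -0.17, interval -0.68 to 0.33, exact permutation p = 0.488). Reads without the mark were thus the larger part of RUBY in most libraries of either group. The pA share of sense reads was 15.0%, 41.9% and 58.9% in green parts, against 21.3%, 34.3% and 49.7% in fully green leaves. Its difference was 3.14 percentage points with an interval of -7.82 to 14.1 (exact permutation p = 0.551), and it was -2.87 points within the first set and 2.83 within the second. Centring on the other targets gave 5.85 points (exact permutation p = 0.272). Over the 9 pairs the mean difference was -1.84 points, with an interval of -5.07 to 1.22 (exact sign-flip permutation p = 0.227, lower in 5 of 9). The sign turned because the 4 green parts libraries without a partner, at 42.2% to 58.9%, are not in that mean. Antisense reads, the strand that a double-stranded copy would add, made up 0.108%, 0.621% and 2.49% of RUBY reads in green parts, against 0.170%, 0.446% and 1.56% in fully green leaves (difference 0.17 points, interval -0.32 to 0.69, exact permutation p = 0.514). The share was higher in green parts in 8 of 9 pairs, by a mean of 0.33 points (interval -0.26 to 0.92, exact sign-flip permutation p = 0.203). Of the 8 RUBY measures 0 passed after adjustment (0.0%), and 2 had an unadjusted p below 0.05, both on full-length reads.

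**Figure D1:**
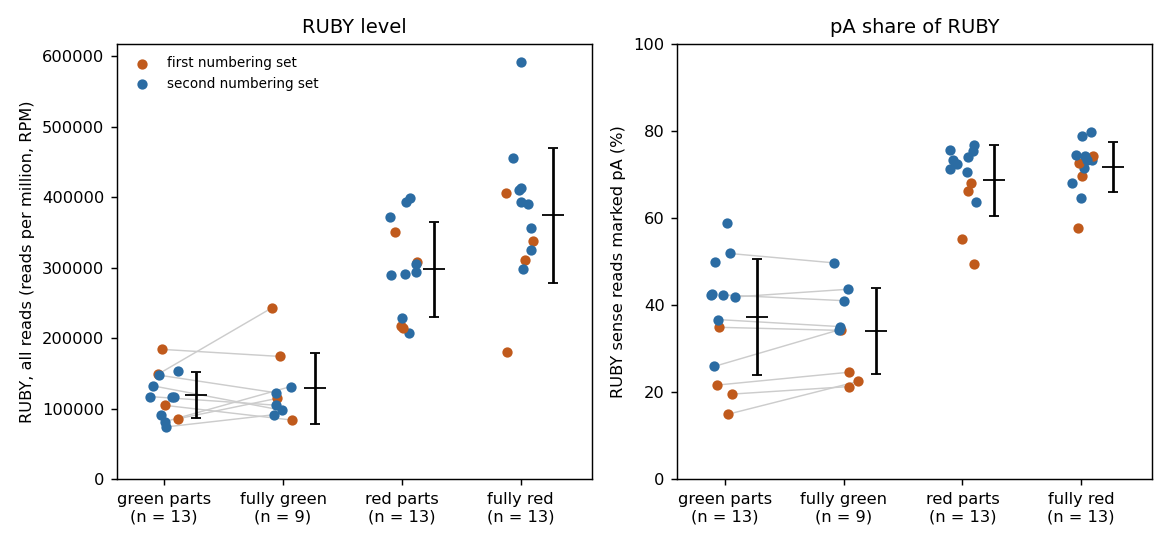
RUBY in all reads (left, RPM) and the share of RUBY sense reads marked pA (right, percent) in each library, coloured by numbering set, with group mean and SD as black bars and grey lines joining libraries of the same line and replicate number in green parts and fully green leaves. Green parts and fully green leaves overlap in both panels, while red parts and fully red leaves are given as a scale.

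The pA share of RUBY differed widely between green libraries, and it did so alike in both kinds of green tissue. Of line MK016, replicates 3, 4 and 5 had 21.7%, 34.9% and 41.9% in green parts, against 24.6%, 34.2% and 43.7% in fully green leaves. Line MK040 was low in both, at 15.0% and 19.6% in green parts, against 22.5% and 21.3% in fully green leaves, and MK043 replicate 1 was high, at 51.9% in green parts against 49.7% in the fully green leaf. MK042 replicate 3 (36.7% in green parts, 35.1% in the fully green leaf) and MK045 replicate 3 (42.4% and 41.0%, in the same order) lay close together. The widest gap was that of MK044 replicate 3, with 25.9% in green parts against 34.3% in the fully green leaf. Libraries of the same line and number lay close together, while the pairs spread over 15.0% to 51.9% in green parts and 21.3% to 49.7% in fully green leaves. Across the 9 pairs Pearson's r was 0.96 (exact permutation p = 5.5e-05) and Spearman's rho 0.95 (exact permutation p = 0.000353). Without the pairs of MK040 replicate 1 and MK043 replicate 1, the farthest from the median, r was 0.93.

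The relation was tested for each of the 35 targets with enough sense reads. RUBY alone passed, as 1 of 35 (2.86%), with an adjusted p = 0.00193 for r and 0.0123 for rho (exact permutation over the pairings). The r of the other 34 targets ran from -0.74 to 0.96, with a median of 0.16. The retroelement SADHU1-1 had the same r of 0.96, with an exact permutation p = 0.00353 and an adjusted p = 0.0618. Its pA share fell into separate clusters by numbering set, at 83.3% to 87.2% in the first and 47.5% to 60.7% in the second set among green parts, and at 78.2% to 85.5% and 52.4% to 61.7% among fully green leaves. The RUBY pA share also differed by set, at 15.0% to 34.9% in the first and 25.9% to 58.9% in the second among green parts. Among fully green leaves it was 21.3% to 34.2% and 34.3% to 49.7%, so the RUBY r of 0.96 also carries the numbering set. With the mean of each set removed, r was 0.05 for SADHU1-1 (permutation within sets, exact p = 0.904) but 0.93 for RUBY (exact p = 0.00208). The sets hold 4 and 5 pairs, and no r was computed within a set. Several pairs share a line, and over the means of the 6 lines r was 0.96 for RUBY (exact permutation p = 0.00833) and 0.95 for SADHU1-1 (exact permutation p = 0.0222), so that line means, which still carry the numbering set, did not set RUBY apart. After the median pA share of the other targets in each library was subtracted, r was 0.87 (exact permutation p = 0.00099), and r of that median itself was 0.54 (exact permutation p = 0.13). The median was 22.0% to 41.8% in green parts and 26.4% to 40.8% in fully green leaves. Between green and red libraries of the same units, r of the RUBY pA share was 0.72 for green parts with red parts (exact permutation p = 0.0261) and 0.17 for fully green with fully red leaves (exact permutation p = 0.664, n = 9 each); these correlations were not tested against each other. The amount of RUBY followed the pairs less closely. For all RUBY reads r was 0.56 (exact permutation p = 0.117), and for reads not marked pA r was 0.78 but 0.03 without the MK040 pairs, so that relation rests on line MK040.

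**Figure D2:**
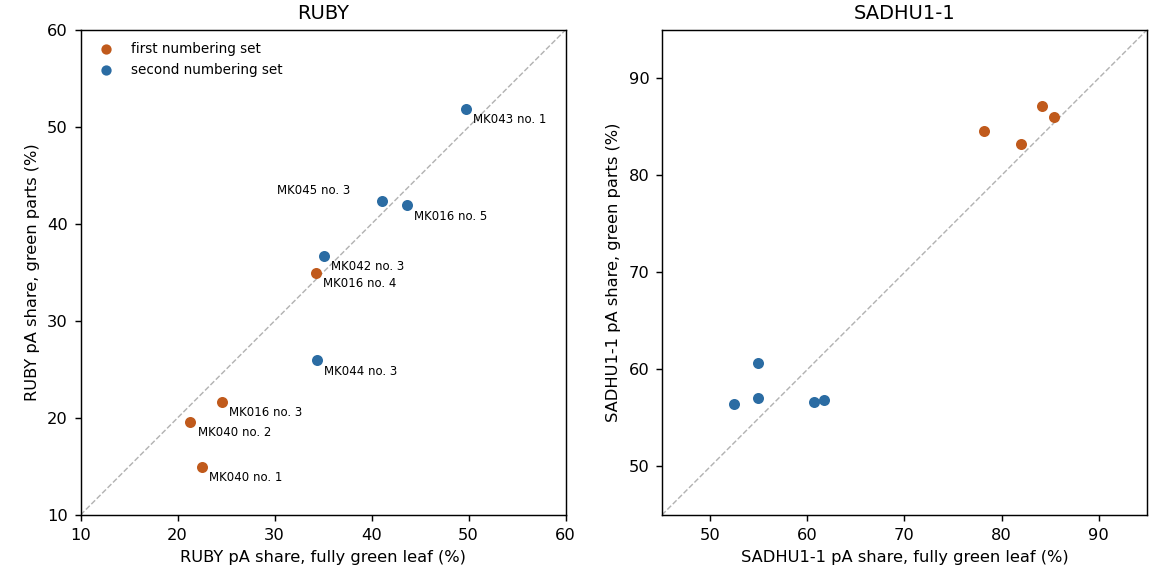
Share of sense reads marked pA in green parts (vertical, percent) against that in the fully green leaf of the same line and replicate number (horizontal, percent), for RUBY (left) and SADHU1-1 (right), with each of the 9 pairs as a point coloured by numbering set and equality as a dashed line. RUBY points run along the line within each set, while SADHU1-1 points form a cluster per set.

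Full-length RUBY molecules, counted once per molecular identifier, were rare in green tissue and more frequent in green parts, though not past the adjusted threshold. Green parts libraries held 0 to 20 such molecules, 114 in all, and fully green libraries 0 to 6, 26 in all. Scaled to library size the lowest, median and highest were 0, 10.2 and 39.3 RPM in green parts, against 0, 2.55 and 8.59 RPM in fully green leaves. In each group 2 libraries had none. Summed over libraries this gives 12.7 molecules per 1000000 reads in green parts (95% Poisson interval 10.4 to 15.2) and 3.49 in fully green leaves (2.28 to 5.12), intervals that cover counting error only. On the log2(RPM + 1) scale, which understates changes this low, the difference was 1.48 with an interval of 0.08 to 2.87 (exact permutation p = 0.0396, adjusted p = 0.168). The full-length ratio, the log2 of full-length over all RUBY reads with 1 RPM added to each, differed by 1.57 (exact permutation p = 0.0419, adjusted p = 0.168). With 10 RPM added in place of 1 the differences were 0.70 (exact permutation p = 0.0142, adjusted p = 0.114) and 0.79 (exact permutation p = 0.0313, adjusted p = 0.125). Both would pass without the green parts library of MK016 replicate 5 or without that of MK040 replicate 1 (adjusted permutation p = 0.0472 and 0.0431). These are the 2 green parts libraries with no full-length molecule, so that leaving out either one necessarily raises the green parts mean.

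The libraries without a partner weighed heavily in this difference. The 4 unpaired green parts libraries had 9.09 to 39.3 RPM of full-length RUBY and 55 of the 114 molecules, and the 9 paired ones had 0 to 22.1 RPM with a mean of 8.79 ± 7.58 (SD), against 3.33 ± 3.05 RPM in the 9 fully green leaves. Within the pairs the log2 difference was 0.89 (interval -1.03 to 2.69, exact sign-flip permutation p = 0.277, higher in 7 of 9). It was 0.58 within the first set (exact permutation p = 0.571) and 1.97 within the second (exact permutation p = 0.0589). Summed over libraries, red tissue held far more, at 168 molecules per 1000000 reads in red parts and 210 in fully red leaves. Single red libraries varied widely, with a median of 122 RPM (4.50 to 408) in red parts and 179 RPM (0 to 475) in fully red leaves. The lowest red libraries thus lay within the range of green ones, and 2 fully red libraries had no full-length molecule. Whether the green parts held some red tissue was not tested. Among full-length reads of all targets, 0 of 36 passed by limma (0.0%), with RUBY the only target at an unadjusted p below 0.05 (p = 0.0314, adjusted p = 0.954), and voom on the recovered molecules also called 0. The RNA-binding protein gene UBP1B came next, at a median of 519 RPM in green parts and 373 RPM in fully green leaves (log2 difference 0.50, limma p = 0.0683). The tasiRNA precursor TAS3 had 116 and 87.2 RPM at the median in green parts and fully green leaves (0.65, limma p = 0.253).

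**Figure D3:**
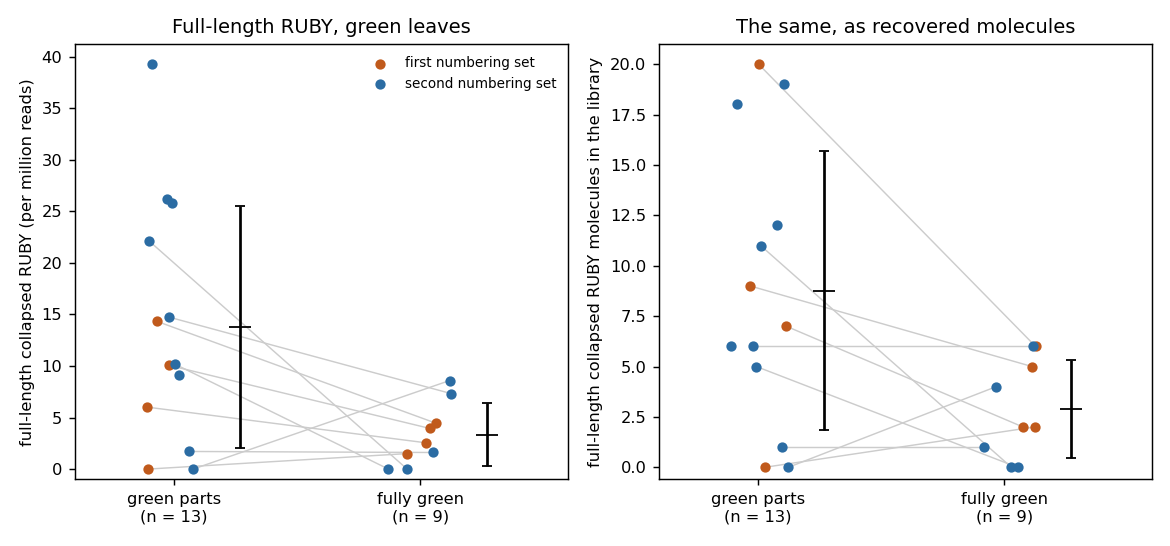
Full-length collapsed RUBY in RPM (left) and as the number of molecules in each library (right), coloured by numbering set, with group mean and SD as black bars and grey lines joining pairs. Green parts reach 39.3 RPM and fully green leaves 8.59 RPM, and 2 libraries of each group have none.

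No endogenous target set the green tissues apart. Of 58 targets with reads in at least 9 libraries, 0 passed by limma on log2(RPM + 1) (0.0%), and 0 had an unadjusted p below 0.05; voom on recovered reads also gave 0 and 0. In 0 of the 58 were the ranges of the groups apart. The differences ran from -1.42 to 1.55, and 44 targets were higher and 14 lower in green parts, with a median of 0.19. The direction depended on the scaling, as 31 were higher and 27 lower after each library was centred on its other targets, and 28 higher and 30 lower with the numbering set as a term. Without centring or the set as a term, the 95% interval lay within a 2-fold difference for 15 of the 58 targets. For the remainder a difference of that size was not excluded.

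The silencing machinery was captured in 8 members, and 0 passed. Before centring 7 were higher and 1 lower in green parts, with a median of 0.18 beside 0.19 over all targets; with centring 3 were higher and 5 lower. AGO1, the slicer, had 6270, 14993 and 26933 RPM at the lowest, median and highest in green parts, against 5752, 11675 and 21423 RPM in fully green leaves (0.18, interval -0.45 to 0.80). RDR6, the RNA-dependent RNA polymerase that makes double strands, had 867, 2326 and 5086 RPM in green parts, against 866, 1660 and 6556 RPM in fully green leaves (0.18, interval -0.70 to 1.06). AGO1 is the member whose interval, with that of DCL4, stays inside a 2-fold difference. DCL4, the Dicer that makes secondary small RNAs, had 1060, 4419 and 9256 RPM in green parts, against 1302, 5264 and 8369 RPM in fully green leaves (0.04, interval -0.81 to 0.89). SGS3, the partner of RDR6, had the largest upward difference of the 8, at 59.2, 1855 and 4740 RPM in green parts, against 274, 1460 and 2580 RPM in fully green leaves (0.57, interval -0.62 to 1.75). SDE3, an RNA helicase of the same pathway, differed by 0.29 but was lower in green parts in 7 of 9 pairs. Of the RdDM genes, the slicers AGO4 (0.18) and AGO6 (-0.24) and NRPD1B, the largest subunit of polymerase V (0.17), likewise had intervals that include 0. The signs of AGO1, AGO4, RDR6, DCL4 and NRPD1B turned under at least 1 other scaling. That of SDE3 turned with line or replicate as a block, so none of these directions is firm.

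TAS3, whose RNA is processed into small RNAs in the RDR6 pathway and which the files class as an RdDM locus, had 9565, 67566 and 94657 RPM in green parts, against 8667, 70726 and 89843 RPM in fully green leaves (-0.06, interval -0.86 to 0.73). In the tasiRNA class AT1G63150 differed by 0.17 and LBD41, a transcription factor gene, by -0.46, with LBD41 spread from 10.6 to 8795 RPM in green parts and from 76.6 to 9475 RPM in fully green leaves. All 12 phasiRNA targets were above 0 in their difference (0.09 to 0.70, median 0.34), beside 44 of all 58 tested targets, and 0 passed. With centring 11 of the 12 were higher with a median of 0.16, beside 31 of all 58. With the set as a term 11 were higher with a median of 0.14, beside 28 of all 58. Several of the phasiRNA targets overlap and share reads, as AT5TE63500 and AT5TE63505 do with AT5G43740. AT5G38850, a disease resistance gene homologue, had 2498, 9527 and 22792 RPM in green parts, against 2810, 6057 and 12256 RPM in fully green leaves (0.45, interval -0.30 to 1.20, limma p = 0.23), and it was higher in 8 of 9 pairs. EMB175, a pentatricopeptide repeat protein gene, had 48.0, 1564 and 2680 RPM in green parts, against 173, 474 and 2458 RPM in fully green leaves (0.70, interval -0.57 to 1.97), and it was higher in 4 of 9 pairs.

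In the protein-coding class 0 of 22 tested targets passed, 19 higher and 3 lower with a median of 0.19, and 13 and 9 after centring. AXS2, an enzyme gene of nucleotide sugar synthesis, had 27289, 106443 and 179021 RPM in green parts, against 31008, 84936 and 129485 RPM in fully green leaves (0.19, interval -0.50 to 0.88). UBP1B (0.40) and ALY1, a homologue of a cell cycle regulator of animals (0.54), were among the 5 targets with the smallest unadjusted p and higher values in green parts; that of ALY1 was 0.302. PDS1, which acts in tyrosine breakdown, the pathway whose substrate RUBY also uses, had 6031, 11521 and 15842 RPM in green parts, against 3590, 12244 and 14225 RPM in fully green leaves (0.26, interval -0.34 to 0.86). HST, which uses a product of PDS1, differed by 0.19. PDS1, HST and SUR1 (0.27) were singled out after their values were seen.

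**Figure D4:**
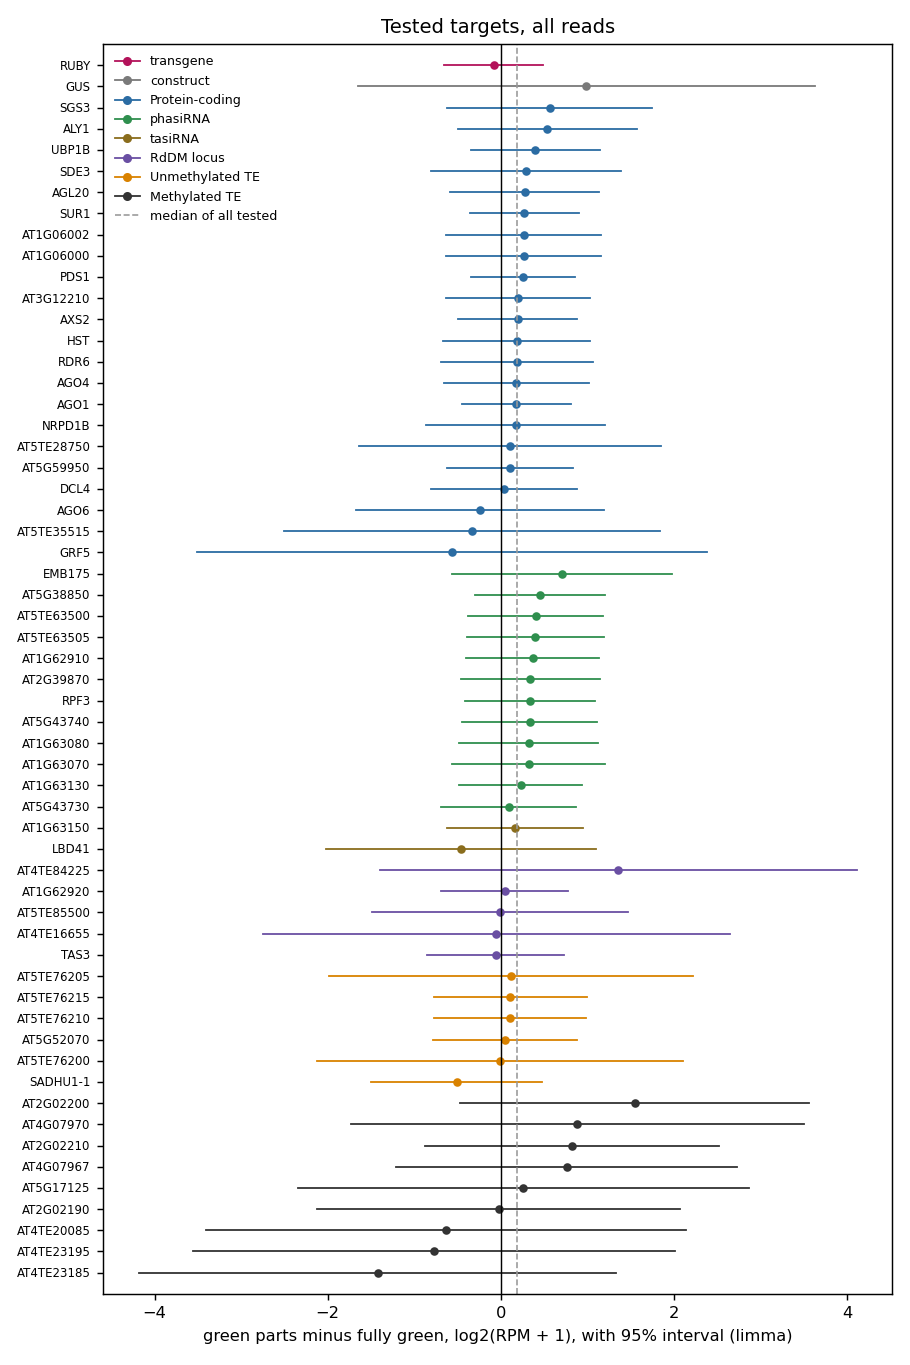
Difference between green parts and fully green leaves in log2(RPM + 1) for each of the 58 tested targets (points) with 95% interval from limma (lines), grouped and coloured by target class, with the median of all tested targets as a dashed line. Every interval includes 0, and the widest is that of the protein-coding target GRF5.

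For methylated elements no interval lay within a 2-fold difference, whereas 3 of 6 tested unmethylated elements had one that did. These 3, AT5G52070, AT5TE76210 and AT5TE76215, belong to the same locus and are not separate results. Of 19 methylated elements 9 were tested and 0 passed, with 5 higher and 4 lower. AT2G02200 had the smallest unadjusted p of all targets (limma p = 0.129), at 17.2, 153 and 427 RPM in green parts, against 0, 95.9 and 507 RPM in fully green leaves (1.55, interval -0.47 to 3.56). It was above 0 in 13 of 13 green parts and 7 of 9 fully green libraries. Its neighbour AT2G02210 differed by 0.83. The AtMu1 target AT4TE23185 differed by -1.42 (interval -4.18 to 1.33), with reads in 4 of 13 green parts and 5 of 9 fully green libraries, and AT4TE23195 by -0.77. AT4TE20085 of the chromosome 4 elements differed by -0.63, and the RdDM locus AT4TE84225 by 1.36. SADHU1-1, the unmethylated element with the most reads, had 3413, 7591 and 71694 RPM in green parts, against 5238, 9693 and 57397 RPM in fully green leaves (-0.51, interval -1.50 to 0.48). Its values split by numbering set, at 17578 to 71694 RPM in the first and 3413 to 9864 RPM in the second set among green parts. Among the 19 targets with reads in too few libraries to be tested, AT2G02205 of the same locus as AT2G02200 had reads in 1 of 13 green parts and 5 of 9 fully green libraries (114 and 338 reads). Fitted without the filter it differed by -2.25 (limma p = 0.0409, adjusted p = 0.985 over 75 targets).

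Of the construct elements, GUS was tested and did not pass (0.99, interval -1.65 to 3.63). It ranged from 0 to 1781 RPM in green parts and from 0 to 690 RPM in fully green leaves, and MK044 replicate 3 was highest in both. eGFP had reads in 4 of 13 green parts and 3 of 9 fully green libraries, at most 42.4 and 14.0 RPM.

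Tail and strand of the other targets were compared in the same way. The pA share of sense reads was tested for 35 targets, and 0 passed by limma (0.0%), with 1 at an unadjusted p below 0.05. That target was RDR6, with 7.92%, 17.9% and 40.4% of sense reads marked pA in green parts, against 6.54%, 31.6% and 35.8% in fully green leaves, a difference of -8.91 points (interval -16.7 to -1.16, limma p = 0.0261, adjusted p = 0.505). TAS3 differed by 6.83 points and AGO1 by -5.92 points, with intervals that include 0. The median difference over the 35 targets was -1.77 points, against 3.14 for RUBY. The antisense share was tested for 40 targets, of which 0 passed (0.0%) and 0 had an unadjusted p below 0.05; SADHU1-1 came closest, with a median of 0.434% in green parts and 0.930% in fully green leaves (-1.24 points, limma p = 0.0601).

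A last comparison asked whether green tissue differs from its red counterpart by the same amount in mixed and in whole leaves. It used the 9 units of line and replicate number that have all 4 colours. RUBY differed between green and red by -1.34 ± 0.55 in mixed leaves and by -1.57 ± 0.87 in whole leaves on the log2 scale (SD over 9 units). The difference of these differences was 0.23, with an interval of -0.30 to 0.77 (exact sign-flip permutation p = 0.371, higher in 4 of 9 units). For reads marked pA the values were -2.50 ± 0.61 in mixed and -2.66 ± 0.65 in whole leaves (difference 0.16, interval -0.40 to 0.70, exact permutation p = 0.492). For the pA share green minus red was -35.3 ± 8.62 points in mixed leaves and -36.0 ± 10.6 points in whole leaves, which differ by 0.72 points (interval -3.85 to 5.09, exact permutation p = 0.703). That mean joins numbering sets of opposite sign. The first set alone gave 5.94 points (exact permutation p = 0.125) and the second -3.46 points (exact permutation p = 0.0625). Every unit of the first set was above 0 and every unit of the second below 0. The differences of differences also depended on the scaling. Centred on the other targets, the difference of differences was 0.51 for all reads (exact permutation p = 0.0469, adjusted p = 0.177), 0.44 for reads marked pA (exact permutation p = 0.0625) and 9.19 points for the pA share (exact permutation p = 0.0664). Without centring 0 of the 8 RUBY measures passed and 0 had an unadjusted p below 0.05; with centring 0 passed and all reads alone had one below 0.05. The smallest p this design allows is 0.0039. Of 64 targets tested by limma 0 passed (0.0%) and 1 had an unadjusted p below 0.05: HST, with a difference of -0.82 (interval -1.63 to -0.005, limma p = 0.0489, adjusted p = 0.902).

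**Figure D5:**
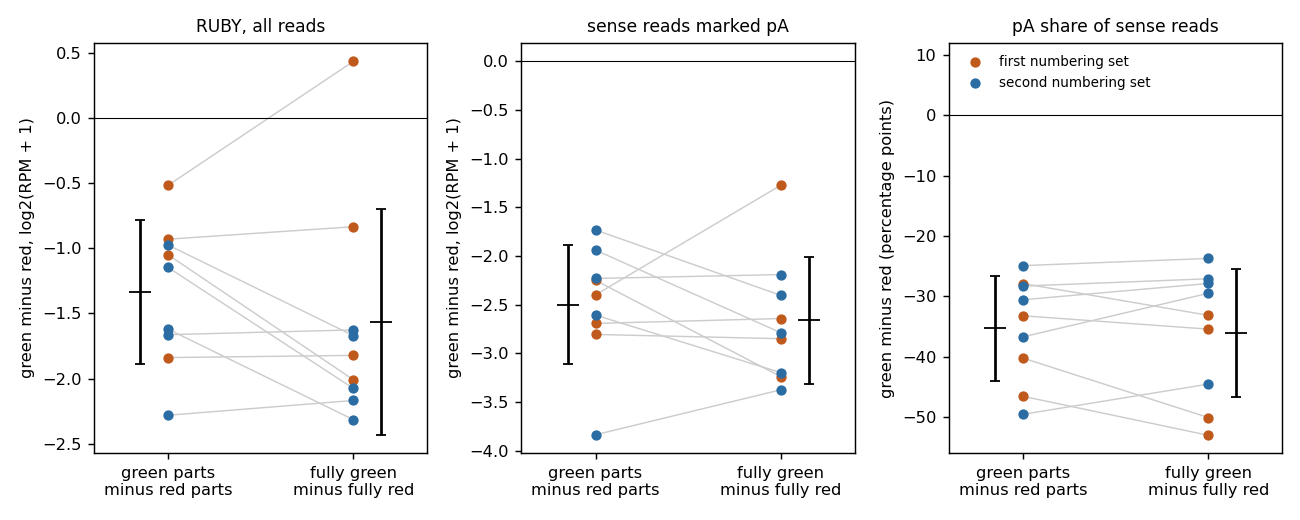
Green minus red for each of the 9 units of line and replicate number, in mixed leaves (green parts minus red parts, left in each panel) and whole leaves (fully green minus fully red, right), for all RUBY reads and sense reads marked pA (log2 scale) and for the pA share (percentage points), with mean and SD as black bars and grey lines joining a unit. The values in mixed and whole leaves overlap in each panel, and in the panel of all RUBY reads MK040 replicate 1 is the unit above 0 in whole leaves.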

How the data were processed

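RNA was extracted with TRIzol, ligated to a 3' adapter, copied by template switching, barcoded, pooled, captured with probes and read by nanopore sequencing, per the labels' protocols; the submitters' processing notes name TAIR10 and cutadapt, without versions, and other steps are not given in the sources used here. The authors deposited, for each library, values per target by strand and pA mark, for all reads and for full-length reads collapsed by molecular identifier. These deposited values proved to be reads per 1000000 (RPM): in 49 of 49 libraries checked each of 7105 distinct values was a whole multiple, within rounding of 0.005, of 1000000 over a whole number, which was taken as the read total; which reads it counts is not stated. The tests, planned for a signal of unknown scale, were kept. Targets absent from a full-length table were set to 0. Gene symbols came from RefSeq (46 of 46 gene identifiers matched).

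Targets above 0 in at least 9 of the 22 libraries were tested with limma 3.58.1 (R 4.3.3) on log2(RPM + 1), with moderation and a trend on the mean, and a call needed a p below 0.05 after Benjamini-Hochberg adjustment. Shares in percent, computed here from the deposited values, were tested for targets with at least 20 RPM in each library. RUBY was tested by exact permutation of group means in Python 3.11.15 (numpy 2.4.6), with intervals by inverting that test. Pairs were tested by sign flips and correlations by exact permutation. Named are RUBY, GUS, eGFP, TAS3, the silencing machinery, the 5 smallest unadjusted p in each direction, and per class the target with the most reads and with the largest change. Scripts were checked on simulated data. The members, lists and tests were chosen with earlier results of these data known; the voom fits, the set as a stratum, the units of each set alone and the correlations across pairs were added after the values were seen. No 2 of the 22 libraries were identical (231 pairs). Alternatives were other pseudocounts, filters, scalings and blocks, and leaving out libraries. Counting intervals cover counting error only, as PCR copies are not independent.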

Additional observations from a re-analysis of the deposited data

Results flagged for a closer look

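Within the 9 fully green libraries, 5 of 33 measures checked had a library far from the rest, where chance gives about 1 in 20. MK040 replicate 1 had a RUBY antisense share of 1.56%, with the next at 0.81%. The same library had no reads of AT2G02210 (log2 value 0.0), with the next lowest at 96.2 RPM. TAS3 stood at 8667 RPM in MK040 replicate 2 (13.08 on the log2 scale), with the next lowest at 41008 RPM. AGO6 stood at 1619 RPM in MK016 replicate 5 (10.66), with the next highest at 431 RPM, and ALY1 at 131 RPM in MK016 replicate 3 (7.05), with the next lowest at 494 RPM. In green parts of the same line and number TAS3 was also the lowest of its group (9565 RPM). AGO6 was high there too, at 1173 RPM against a group highest of 1532 RPM. The RUBY antisense share (0.59%), AT2G02210 (133 RPM) and ALY1 (1019 RPM) were not at an end of their green parts ranges. With any of the flagged fully green libraries left out, limma called 0 targets.

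A library titled Col-0 Green, labelled with the same construct and used in no comparison here, had 295.1 RPM of RUBY (759 reads, 95% Poisson interval 274 to 317 RPM), 84.3% of its sense reads marked pA and 1 full-length molecule among 2571924 reads. Unlike those of the 22 libraries its title names no transgenic line, and although the label gives the construct, it is not certain that this plant carried the transgene.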

How the results depend on the processing

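Each of the 36 alternatives for all reads, the replicate block included, gave 0 called targets, as did each alternative for full-length reads, pA share, antisense share and the difference of differences. None of 893 alternative values of the 25 named targets other than RUBY was called; 66, of 12 targets, changed sign, among them AT2G02210 (0.83) and LBD41 (-0.46). For RUBY in all reads the difference was -0.26 with centring, 0.04 within the second numbering set and -0.15 to 0.04 with single libraries left out. Of the 8 RUBY measures 0 to 2 passed with single libraries left out: the full-length reads (1.27 to 1.75) and ratio (1.34 to 1.87), which with a pseudocount of 10 were 0.70 and 0.79. The cause of the other changes was not tested.

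The replicate numbers paired the libraries at most weakly and unevenly across targets (r of deviations -0.055 to 0.383, over 0.1 in 5 of 9 pairs, and 2 of 9 green parts libraries closest to their own number). With the replicate block 0 targets passed; the pA share of RUBY turned to -1.84 points, and AXS2 (-0.09), DCL4 (-0.05), RDR6 (-0.03), LBD41 (0.04), SDE3 (-0.12), NRPD1B (-0.21) and AT1G63150 (-0.04) changed sign, as they did over the same 9 pairs without pairing, with the same values. With block and centring they stood at -0.11, -0.07, -0.05, 0.01, -0.14, -0.23 and -0.06. Centring alone gave -0.002 for AGO1, -0.0004 for AGO4, -0.14 for DCL4, -0.01 for NRPD1B, -0.01 for AT1G63150 and -0.06 for RUBY antisense reads. Scaling to protein-coding targets gave -0.04 for AGO1, AGO4 and RDR6, -0.03 for AXS2, -0.18 for DCL4, and -0.05 for NRPD1B and AT1G63150. The set as a term gave -0.21 for DCL4, -0.03 for RDR6 and NRPD1B, -0.04 for AGO4 and -0.05 for AT1G63150. Line as a block gave -0.04 for SDE3, -0.02 for AT1G63150, -0.15 for NRPD1B, -0.03 for DCL4 and -0.08 for AXS2, and line means -0.03 for AT1G63150 and AGO4, -0.01 for RDR6 and -0.06 for DCL4. Within sets RUBY reads marked pA turned to 0.11 in the second, and the pA share to -2.87 points in the first.

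With single libraries left out the ranges that crossed 0 were -0.46 to 0.06 for AGO6, -0.06 to 1.09 for AT2G02210, -0.16 to 0.19 for DCL4, -0.94 to 0.05 for LBD41, -0.07 to 0.50 for SDE3, -0.39 to 0.14 for TAS3, -0.13 to 0.07 for RUBY reads marked pA and -0.11 to 0.45 for RUBY antisense reads. In the difference of differences they were -0.41 to 1.13 for full-length RUBY, -0.69 to 0.75 for its ratio, -0.16 to 0.12 for the antisense share and -0.42 to 1.71 for the pA share. There, centring gave 0.51 for all reads, 0.44 for reads marked pA, 9.19 points for the pA share, 0.01 for the antisense share and 0.23 for the ratio, the first set alone -0.33 for reads not marked pA, -0.03 for all reads, -0.04 for reads marked pA and -1.85 for full-length reads, and the second set alone 0.09 for the antisense share, -3.46 for the pA share and 1.45 for the ratio. Depth limits the full-length RUBY values, which rest on 0 to 20 molecules per library, and the elements with reads in few libraries.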
